A study of Mus musculus with 18 samples.

Results

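The genes of the red cell membrane and its protein skeleton were followed through Gata-1-driven maturation of a mouse erythroid line. They were taken by gene symbol, as every probe set that the platform annotation assigned to Slc4a1, Ank1, Rhag, Dmtn, Mpp1, Add1, Bsg, Tspan33 or Ache. This gave 9 of the 8251 genes on the array and 11 of the 12422 probe sets tested, because Ank1 had 3 probe sets and each other gene had 1. All 11 were also found by gene number in the RefSeq gene table under the same symbol. The study used G1E-ER4 cells, grown from mouse embryonic stem cells whose Gata-1 gene had been disrupted by targeting. All groups shared that disruption, and all carried Gata-1-ER, a fusion of Gata-1 with the estradiol-binding domain of the estrogen receptor. The groups were cells at 3, 7, 14, 21 and 30 h after estradiol was added and untreated cells at 0 h, with 3 biological replicas at each time (A, B and C in the labels) and 1 Affymetrix MG-U74Av2 array per replicate, 18 arrays in all. ER4 is 1 subclone, its Gata-1 activity comes from the added fusion protein, and the series as analysed here held no cells with estradiol but without the fusion and no untreated cells kept to a later time. Time in culture and time of Gata-1 activity therefore cannot be told apart.

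A red cell keeps its shape and flexibility through a mesh of spectrin that lies under the lipid membrane. The mesh is held at ankyrin complexes, where ankyrin joins spectrin to the anion exchanger band 3 and to the Rh proteins, and at junctions where short actin filaments meet spectrin, adducin, dematin, protein 4.1 and p55. Erythroblasts make these proteins while they mature, and many surface proteins of the progenitor are cleared from the membrane in the course of maturation.

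The deposited values were signal intensities on a linear scale, and the 2% trimmed mean of each array lay between 150.094 and 150.124. For the tests 16 was added to each signal before log2, and quantile normalization put the arrays on 1 distribution, so a log2 change understates the change of a dim gene. A probe set was called when its limma p, adjusted by the Benjamini-Hochberg method over all 12422 probe sets of a comparison, was below 0.05. Signals are given on the deposited scale, log2 changes on the normalized scale, and the level of 1 probe set cannot be set against that of another. Gata1 itself was read by 1 probe set, with signals of 201, 157 and 269 in untreated cells, then 126, 150 and 136 after 3 h, with 165, 221 and 207 after 7 h. After 14 h it gave 334, 204 and 217, after 21 h 341, 428 and 470, and after 30 h 480, 605 and 418. Whether this probe set reads the disrupted gene, the fusion or both was not given in the sources used here, so it does not check the labels. The summed signal of 7 erythroid markers was 49510 to 61390 at 30 h, against 9853 to 12540 at 0 h, and the brightest markers weigh most in this sum. Of the 7, 5 were called higher at 30 h, against 12.8% of all probe sets, and 2 were not called. At 3 h 1 was called higher and 1 lower, against 1.06% of all probe sets called in either direction. The 5 megakaryocyte, 8 mast cell, 9 neutrophil and macrophage and 7 lymphocyte markers each had a mean over all 18 arrays below 100, as did 5 of 6 fibroblast and stromal markers. The summed megakaryocyte signal was 155.3 to 230.8 at 14 h, 137.8 to 210.0 at 21 h and 100.4 to 102.0 at 30 h, against 98.8 to 109.2 at 0 h. Of these lists, Gp9 of the megakaryocyte markers was called higher at 14 h (mean 117.6, against 30.77 at 0 h, log2 change 1.46) and 21 h (99.33, log2 change 1.34). Among the mast cell markers, Cma1 was called higher at 30 h (64.23, against 9.733 at 0 h) and 21 h, while Mcpt1 (12.57 at 30 h, 53.27 at 0 h) and Cpa3 (10.6 at 30 h, 27.73 at 0 h) were called lower at both times and Mcpt1 also at 14 h. Dcn of the stromal markers was called lower at 21 h (3.9, against 22.37 at 0 h). The part of these cells or genes in the results was not tested. The arrays read bulk RNA, in which fewer cells of a type and less RNA per cell cannot be told apart.

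After 30 h of estradiol, all 11 probe sets were called. The 9 probe sets of 7 genes (Slc4a1, Ank1, Dmtn, Mpp1, Add1, Tspan33 and Ache) were higher than at 0 h, and the probe sets of Rhag and Bsg were lower. Among all probe sets, 12.8% were called higher and 13.8% lower in that comparison. The 3 arrays at 30 h lay wholly above those at 0 h for 9 of the 11 and wholly below them for the other two, which was the case for 18.9% and 18.6% of all probe sets. At 3 h none of the 11 was called by limma, against 1.06% of all probe sets. An unadjusted p below 0.05 was found for 3 of the 11, and the share of all probe sets with such a p was not computed. The 3 h arrays lay wholly above those at 0 h for 6 of the 11 and wholly below them for 1, against 6.68% and 8.85% of all probe sets. At 7 h, 7 of the 11 were higher, against 2.48% of all probe sets. After 14 h, 9 were higher, against 6.55% of all, and 9 were higher after 21 h, against 9.75%. The median log2 change of the 9 genes at 3, 7, 14, 21 and 30 h was 0.23, 0.96, 1.59, 1.81 and 2.20. Over all 8251 genes the medians at those times lay between -0.01 and 0.05. All 11 probe sets differed between times in the limma F test, which called 27.2% of all probe sets. These 9 genes were picked with results from the same arrays known, so their counts describe the set and are not independent evidence of its direction.

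**Figure D1:**
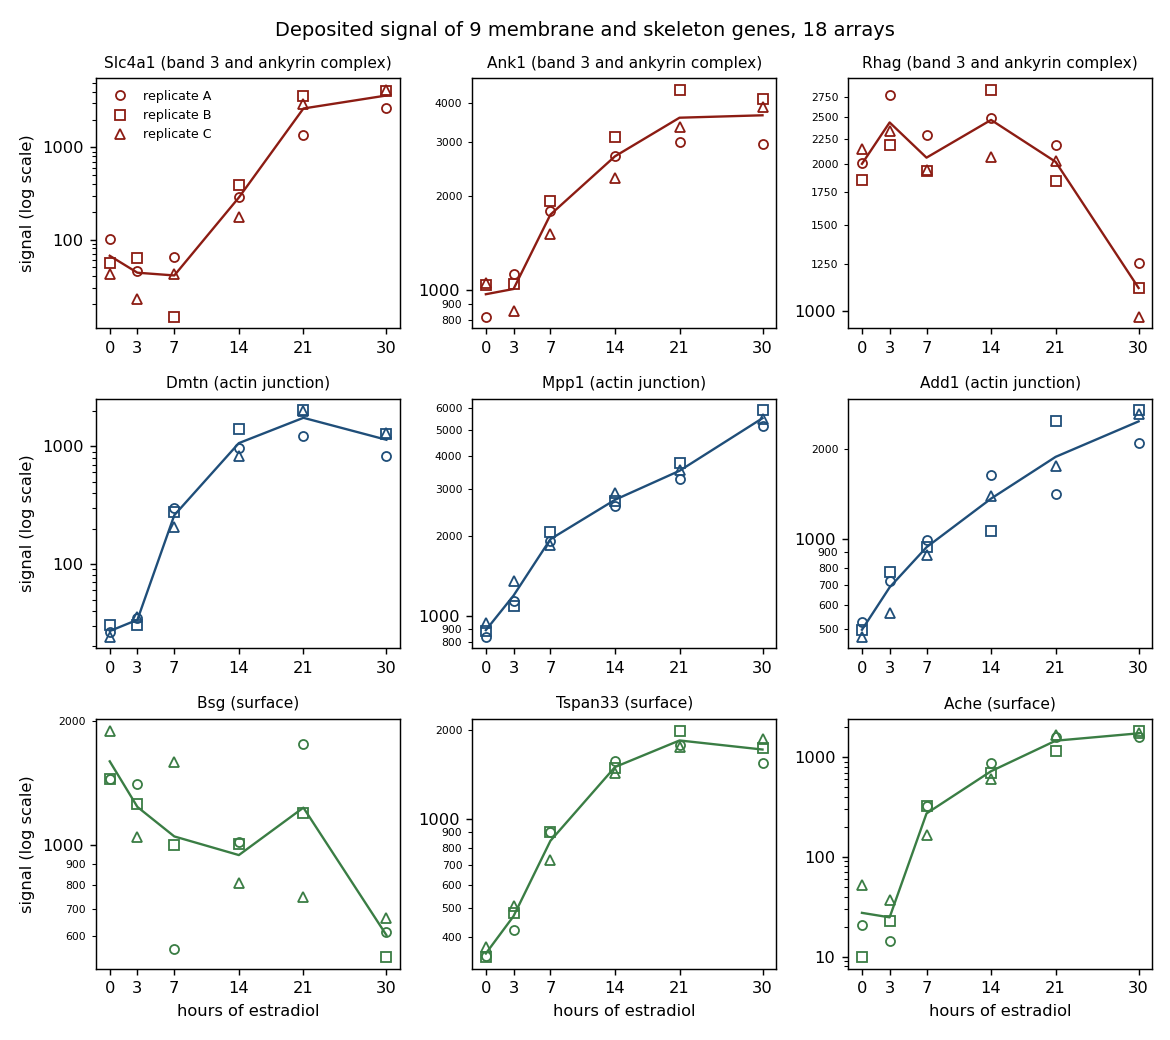
Signal of the 9 genes by hours of estradiol (x axis), on the deposited scale (log y axis). Points are the 3 arrays at each time and lines join the means. Slc4a1, Dmtn and Ache had means below 100 at 0 h and of at least 1138 at 30 h, while Rhag and Bsg ended below their signals at 0 h.

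The sequences before the gene start are shown for 3 of the genes out of the 5 of 9 genes for which RefSeq promoters (build GRCm38.p6) were used here. Mpp1 is shown as the gene whose window held the motif searched for, Ache for the largest log2 rise of the 5 at 30 h, and Rhag as the gene of the 5 that fell. Each window ends at the base before the outermost annotated start of the gene and is written 5′ to 3′ on the gene's strand. The windows were chrX:75131017-75131266 on the minus strand for Mpp1, chr5:137288004-137288246 on the plus strand for Ache and chr17:40810899-40811098 on the plus strand for Rhag. Capitals mark the binding motif of the Gata family, searched on both strands as GATA with A or T before it and A or G after it.
Mpp1: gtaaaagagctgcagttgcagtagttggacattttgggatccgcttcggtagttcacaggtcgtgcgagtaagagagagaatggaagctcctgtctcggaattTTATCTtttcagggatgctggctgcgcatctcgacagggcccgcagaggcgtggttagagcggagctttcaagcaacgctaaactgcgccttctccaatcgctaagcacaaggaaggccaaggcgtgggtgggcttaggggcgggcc
Ache: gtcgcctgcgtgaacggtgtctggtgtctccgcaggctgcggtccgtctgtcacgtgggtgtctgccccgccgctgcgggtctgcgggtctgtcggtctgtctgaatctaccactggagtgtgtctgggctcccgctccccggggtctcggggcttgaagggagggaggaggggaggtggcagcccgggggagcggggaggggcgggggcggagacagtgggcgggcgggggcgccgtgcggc
Rhag: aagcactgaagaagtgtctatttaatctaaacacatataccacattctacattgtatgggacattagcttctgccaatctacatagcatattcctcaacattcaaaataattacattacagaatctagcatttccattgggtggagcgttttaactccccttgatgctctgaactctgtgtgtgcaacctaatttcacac
Mpp1 held 1 match, on the opposite strand, which began 147 bases before the gene start. Windows of the same length before all 32851 starts in the table held at least 1 match in 26.5% of cases. The windows of Ache (243 bases), Rhag (200 bases), Add1 and Tspan33 (250 bases each) held 0 matches, where 26.1%, 23.1%, 26.5% and 26.5% of all windows of those lengths held 1 or more. The letters CACCC, the core of a motif read by erythroid Klf factors, were found on either strand before 3 of the 5 genes, Mpp1, Ache and Rhag, and before 52.0%, 51.1% and 44.4% of all starts at those lengths. In both searches the windows compared with Ache and Rhag were the first 243 and 200 of the 250 bases before each start. They therefore ended short of the start. The share of G and C was 73.3% for Ache, 55.2% for Mpp1 and 37.0% for Rhag. A match is a description of the letters and not a bound site, and a window without one says nothing about binding elsewhere at the gene.

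Slc4a1, which encodes band 3, the chloride and bicarbonate exchanger that is also the main membrane anchor of the skeleton, was first called higher at 14 h, whereas the other 6 genes that rose were first called at 7 h. Its signals (probe set 101077_at) were 102, 55.8 and 42.8 in untreated cells, then 46.1, 62.6 and 22.4 after 3 h, with 65.3, 14.6 and 42.5 after 7 h. After 14 h they were 287, 393 and 177, after 21 h 1348, 3586 and 2985, and after 30 h 2705, 4037 and 4213. The arrays of the first 3 times overlapped, and every array from 14 h on lay above all of them. Slc4a1 averaged 3652 ± 825 at 30 h and 66.7 ± 30.8 at 0 h (SD, n = 3 each), a log2 change of 5.40 (SE 0.37, adjusted p = 1.37e-09). This was the fourth largest rise of all probe sets tested, and the sixth and the fifth largest with constants of 1 and 64. The log2 change against 0 h was -0.41 at 3 h (adjusted p = 0.91) and -0.60 at 7 h (adjusted p = 0.559), then 1.89 at 14 h (adjusted p = 0.0015) and 4.90 at 21 h (adjusted p = 1.05e-08). Between neighbouring times it rose at 14 h against 7 h (2.49, adjusted p = 0.000822) and at 21 h against 14 h (3.01, adjusted p = 0.000165). The later of these was the largest log2 rise of all probe sets with constants of 1, 16 and 64, and the earlier ranked 1 with a constant of 16, 2 with 1 and 5 with 64. At 30 h against 21 h the change was 0.50 (adjusted p = 0.579).

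Ank1 encodes ankyrin 1, which ties band 3 to beta spectrin. It was bright before estradiol and was higher from 7 h on. The probe set with the highest mean, 100440_f_at, had signals of 819, 1033 and 1048 in untreated cells, then 1120, 1042 and 853 after 3 h, with 1796, 1934 and 1507 after 7 h. The later signals were 2694, 3097 and 2286 (14 h), 2993, 4413 and 3351 (21 h) and 2951, 4113 and 3890 (30 h). The arrays at 0 h and 3 h overlapped, those at 7 h lay above both, and those at 14, 21 and 30 h overlapped each other. The rise at 7 h against 3 h (0.81, adjusted p = 0.0201) was lost without the 3 h replicate B (adjusted p = 0.0512), the 3 h replicate C (0.132), the 7 h replicate A (0.0783) or the 7 h replicate B (0.0934). It was also lost with median scaling (0.68, adjusted p = 0.296), without the intensity trend (0.0759) and in a fit of the compared times alone (0.0564). Its log2 change against 0 h was 0.85 at 7 h (SE 0.16, adjusted p = 0.004) and 1.76 at 30 h (adjusted p = 8.58e-08). With arrays scaled to a common median the 7 h change was 0.83 and not called (adjusted p = 0.066). The probe set 100439_i_at, designed from the same transcript record, changed by 1.18 at 7 h (adjusted p = 0.000117) and 1.96 at 30 h (adjusted p = 1.45e-08). The probe set 100441_s_at came from another record and had means of 147, 189, 229, 371, 541 and 637 at the 6 times. Its change at 7 h was 0.58 and not called (adjusted p = 0.112), that at 14 h was 1.27 (adjusted p = 9.35e-05) and that at 30 h was 2.05 (adjusted p = 7.32e-08). The endings _f, _i and _s mark probes that may read related transcripts or break a design rule, so the transcript form read by each is uncertain, and the difference between probe sets at 7 h was not tested.

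Rhag, the Rh-associated glycoprotein that Rh proteins need to reach the surface, was the only member of the ankyrin complex among the 9 genes that fell. The signals of its probe set 102762_r_at were 2009, 1854 and 2146 in untreated cells, then 2776, 2184 and 2342 after 3 h, with 2297, 1941 and 1948 after 7 h. After 14 h they were 2483, 2839 and 2066, after 21 h 2189, 1850 and 2029, and after 30 h 1258, 1116 and 975. The 30 h arrays lay below every other array of the course, the 3 h arrays lay just above those at 0 h, and the arrays at 7, 14 and 21 h overlapped those at 0 h. Rhag averaged 1116 at 30 h and 2003 at 0 h, a log2 change of -1.01 (SE 0.15, adjusted p = 3.02e-05), and it also fell by 0.83 on the log2 scale at 30 h against 21 h (adjusted p = 0.00227). At 3, 7, 14 and 21 h its changes against 0 h were 0.23, -0.04, 0.21 and -0.18, with 95% intervals of -0.08 to 0.55, -0.36 to 0.27, -0.11 to 0.53 and -0.50 to 0.14. None of these passed the test (adjusted p = 0.814, 0.962, 0.473 and 0.493). The ending _r marks a probe set that broke a design rule.

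Dmtn, which encodes dematin, a protein that bundles actin at the spectrin junctions, rose at 7 h and remained higher at 30 h. Its signals (103600_at) were 26.6, 30.3 and 24.0 in untreated cells, then 34.8, 30.4 and 35.7 after 3 h, with 298, 277 and 205 after 7 h. The later signals were 965, 1413 and 821 (14 h), 1220, 2029 and 1997 (21 h) and 834, 1269 and 1310 (30 h). The 3 arrays at 7 h lay well above those at 0 h and 3 h and below all later ones, and the 30 h arrays overlapped those at 14 h and 21 h. Dmtn averaged 260.1 at 7 h and 26.97 at 0 h, a log2 change of 2.65 (SE 0.21, adjusted p = 1.54e-07). Against 0 h its log2 change was 4.63 at 14 h, 5.26 at 21 h (adjusted p = 1.75e-12) and 4.67 at 30 h (adjusted p = 5.5e-12). The 0 h signals of Dmtn lay below the array medians (38.4 to 51), so these sizes depend on the constant added. At 30 h the change was 5.28 with a constant of 1 and 3.64 with 64, and at 7 h it was 3.19 and 1.80. The change at 30 h against 21 h was -0.60, with a 95% interval of -1.04 to -0.16, and was not called (adjusted p = 0.128). Without the 21 h replicate A that change was -0.79 and was called (adjusted p = 0.048).

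Mpp1 encodes p55, a membrane guanylate kinase homologue that joins protein 4.1 and glycophorin C at the junction. Its signals (97803_at) were 838, 881 and 948 in untreated cells, then 1138, 1090 and 1363 after 3 h, with 1916, 2077 and 1846 after 7 h. After 14 h they were 2594, 2715 and 2885, after 21 h 3264, 3741 and 3516, and after 30 h 5162, 5909 and 5481. No array of a later time overlapped an array of an earlier one. Mpp1 averaged 5517 at 30 h and 888.9 at 0 h, a log2 change of 2.52 (SE 0.11, adjusted p = 3.52e-12). The change at 3 h was 0.42 and was not called (adjusted p = 0.0838), but was called with array quality weights (adjusted p = 0.038). Its rises at 7 h against 3 h (0.70, adjusted p = 0.00403), at 14 h against 7 h (0.47, adjusted p = 0.0263) and at 30 h against 21 h (0.71, adjusted p = 0.000514) were called. The 7 h step was lost with median scaling (0.59, adjusted p = 0.218) and in a fit of the compared times alone (adjusted p = 0.0528). The 14 h step was lost with median scaling (adjusted p = 0.315), in a fit of the compared times alone (0.149), without the intensity trend (0.0985) and when any of the 6 arrays compared was left out (0.0558 to 0.115). The 30 h step was lost with median scaling (0.62, adjusted p = 0.0733).

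Add1 encodes alpha adducin, which caps actin filaments and recruits spectrin to them. Its signals (94535_at) were 526, 494 and 469 in untreated cells, then 722, 777 and 566 after 3 h, with 990, 938 and 884 after 7 h. The later signals were 1637, 1064 and 1388 (14 h), 1413, 2476 and 1752 (21 h) and 2096, 2693 and 2623 (30 h). The course climbed in small steps, and the arrays at 21 h overlapped those at 14 h and 30 h. Add1 was higher at 7 h by 0.96 on the log2 scale (SE 0.19, adjusted p = 0.00462), at 14 h by 1.44 and at 30 h by 2.20 (adjusted p = 2.74e-08). No step between neighbouring times was called for Add1, with changes of 0.49, 0.48, 0.37 and 0.39 at 7, 14, 21 and 30 h against the time before.

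Tspan33 encodes a tetraspanin of the group that escorts the protease Adam10 to the cell surface. Its signals (104398_at) were 345, 341 and 370 in untreated cells, then 423, 480 and 507 after 3 h, with 903, 902 and 725 after 7 h. After 14 h they were 1570, 1488 and 1428, after 21 h 1781, 1984 and 1749, and after 30 h 1542, 1732 and 1863. Arrays of the first 5 times did not overlap, and those at 30 h overlapped those at 14 h and 21 h. Tspan33 was higher at 7 h by 1.27 on the log2 scale (SE 0.12, adjusted p = 2.08e-06), at 14 h by 2.09 (adjusted p = 8.37e-10) and at 30 h by 2.13 (adjusted p = 1.12e-10). Its rises at 7 h against 3 h (0.88, adjusted p = 0.000964) and at 14 h against 7 h (0.82, adjusted p = 0.000767) were called, and the earlier was lost with median scaling (0.71, adjusted p = 0.0595) and in a fit of the compared times alone (adjusted p = 0.0512).

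Ache encodes acetylcholinesterase, which sits on red cells through a lipid anchor and carries the Yt blood group in humans. Its signals (104650_at) were 20.7, 9.80 and 51.8 in untreated cells, then 14.4, 22.8 and 37.0 after 3 h, with 324, 326 and 166 after 7 h. The later signals were 877, 691 and 597 (14 h), 1577, 1154 and 1647 (21 h) and 1586, 1841 and 1762 (30 h). The dim arrays of the first pair of times overlapped, and each array from 7 h on was above them. Ache averaged 1730 at 30 h and 27.43 at 0 h, a log2 change of 5.32 (SE 0.31, adjusted p = 1.35e-10) that ranked 5 among the rises of all probe sets. Because its 0 h signals lay near or below the array medians (38.4 to 51), that size and rank depend on the constant added: the change was 6.10 (rank 5) with a constant of 1 and 4.19 (rank 8) with 64. At 7 h it was higher by 2.77 (adjusted p = 1.14e-05), and its log2 rise at 7 h against 3 h (2.71, adjusted p = 0.000148) was the largest of all probe sets with constants of 1, 16 and 64. The rise at 14 h against 7 h (1.43, adjusted p = 0.0146) was lost without the 7 h replicate C (adjusted p = 0.0918) or the 14 h replicate A (adjusted p = 0.0926), and with a constant of 1 (1.49, adjusted p = 0.0778).

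Bsg encodes basigin, an immunoglobulin-family glycoprotein that carries the Ok blood group in humans and escorts monocarboxylate transporters to the surface. Its signals (101078_at) were 1445, 1449 and 1895 in untreated cells, then 1407, 1260 and 1043 after 3 h, with 558, 998 and 1591 after 7 h. After 14 h they were 1020, 1008 and 808, after 21 h 1754, 1193 and 749, and after 30 h 616, 533 and 664. The replicates at 7 h and 21 h were widely spread and overlapped those at 0 h, whereas the arrays at 3, 14 and 30 h lay below all 3 arrays at 0 h. Bsg averaged 604.3 at 30 h and 1596 at 0 h, a log2 change of -1.42 (SE 0.30, 95% interval -2.05 to -0.79, adjusted p = 0.00105). The changes at 3, 7, 14 and 21 h were -0.37, -0.75, -0.81 and -0.56 and were not called (adjusted p = 0.883, 0.23, 0.0884 and 0.233). Without the 7 h replicate C, Bsg was called lower at 7 h (-1.14, adjusted p = 0.0298) and at 14 h (adjusted p = 0.0368), and without the 7 h replicate A at 14 h (adjusted p = 0.0327). It was also called at 14 h in a fit of the compared times alone (adjusted p = 0.012). The change at 30 h against 21 h was -0.86 and was not called (adjusted p = 0.12), but was called without the 7 h replicate A (adjusted p = 0.0483) or the 21 h replicate C (-1.16, adjusted p = 0.0422).

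For the 7 genes that rose, the share of the 30 h change already reached was computed at each time. At 7 h the log2 change was 59.6% of that at 30 h for Tspan33, 56.8% for Dmtn, 52.1% for Ache, 48.3% for Ank1 (100440_f_at), 44.3% for Mpp1 and 43.6% for Add1, but -11.1% for Slc4a1. The other Ank1 probe sets gave 60% (100439_i_at) and 28.2% (100441_s_at) at 7 h. At 14 h it was 99.3% for Dmtn and 98.0% for Tspan33, 63.1% for Mpp1 and 35.0% for Slc4a1. At 21 h it was 90.8% for Slc4a1, 113% for Dmtn and 71.9% for Mpp1. These shares come from changes that all use the same 0 h arrays, and for dim genes those changes depend on the constant added. Differences between genes in the shares were not tested. Between neighbouring times, 6 of the 11 probe sets (Ank1 100440_f_at and 100439_i_at, Dmtn, Mpp1, Tspan33 and Ache) rose at 7 h against 3 h, where 0.733% of all probe sets did. At 14 h against 7 h, 5 rose (Slc4a1, Dmtn, Mpp1, Tspan33 and Ache), against 1.26% of all. At 21 h against 14 h only Slc4a1 of the 11 rose, against 0.942% of all. At 30 h against 21 h only Mpp1 of the 11 rose, against 1.87% of all, and only Rhag fell, against 3.12%. The first of these counts dropped to 2 with median scaling and to 3 in a fit of the compared times alone. Over all probe sets the called rises in that comparison also dropped, from 91 to 21 and 15 in these alternatives.

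**Figure D2:**
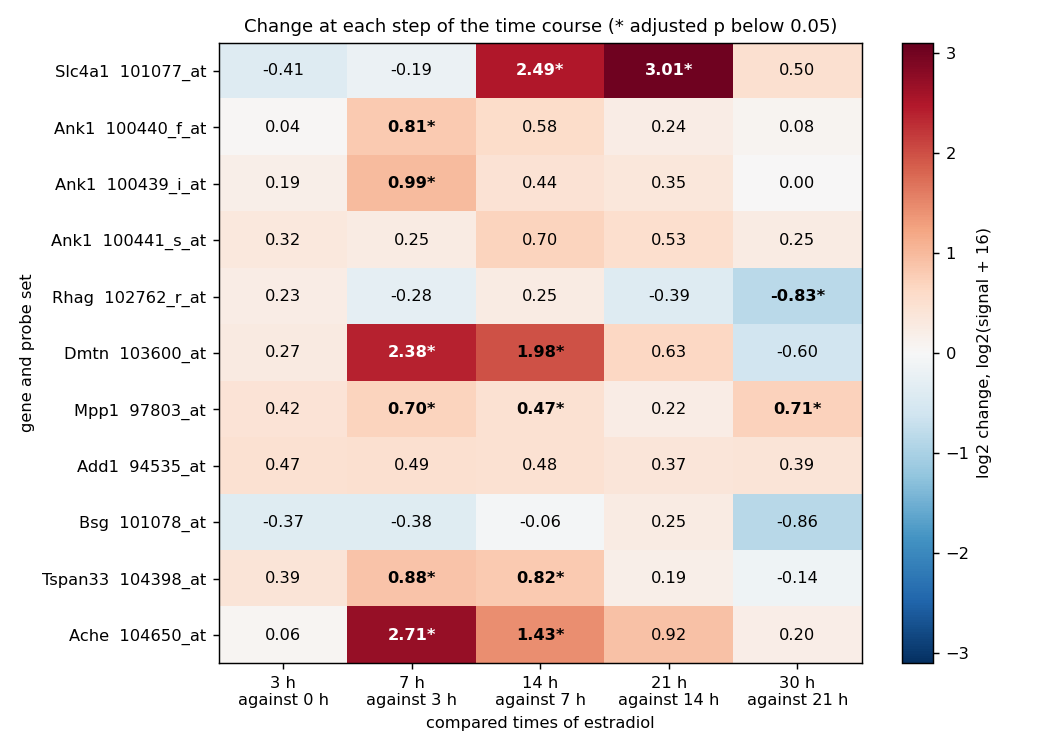
Log2 change (colour and number, log2 of signal + 16) of the 11 probe sets (rows) at each step of the course (columns), each the later time minus the earlier one. Stars mark an adjusted p below 0.05. The called rises of Dmtn, Tspan33 and Ache stand at 7 h and 14 h, those of Slc4a1 at 14 h and 21 h, and Rhag has its called fall at 30 h.

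Over the 18 arrays Pearson's r was computed between the normalized log2 signals of the 9 genes. Among the 7 that rose it ran from 0.777 for Slc4a1 with Tspan33 to 0.988 for Dmtn with Tspan33. Rhag and Bsg had an r of 0.533 with each other and negative values, from -0.723 to -0.423, with each of the other 7. The signs follow from grouping the genes by their change over time, and the values describe arrays that share times and a common scaling. The genes most like Slc4a1 were Prdx2 (r = 0.973), Sprr1b (0.967, read by an _r_at probe set) and Uba7 (0.966). The closest to Dmtn were Tspan33 (0.988), Hagh (0.982) and Tmem14c (0.980), and the closest to Tspan33 were Tmem14c (0.988), Dmtn (0.988) and Hebp1 (0.978). Ank1 was closest to Dmtn (0.975), Ralb (0.968) and Eif2ak1 (0.963). Ache was closest to Tspan33 (0.977), Ift20 (0.975) and Dmtn (0.972). For Mpp1 they were Serinc3 (0.981), Ctsb (0.981) and 1810058I24Rik (0.976), and for Add1 Wdr92 (0.967), Slc39a8 (0.962) and Rmnd5a (0.962). Of the pair that fell, Rhag was closest to Leprot (0.933), Odc1 (0.924) and Ssr3 (0.906), and Bsg to Pgm1 (0.905), Pdk1 (0.896) and Pgam1 (0.855).

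**Figure D3:**
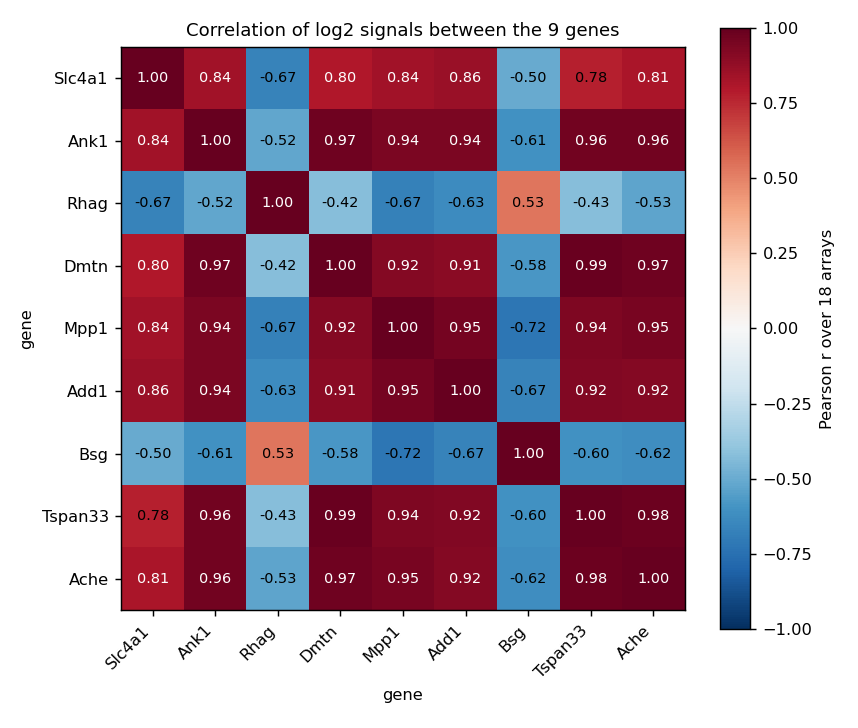
Pearson's r between the normalized log2 signals of each pair of the 9 genes over 18 arrays (rows and columns are genes, colour and number give r). The 7 genes that rose share values of 0.777 or more, and Rhag and Bsg are negative with all 7.

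Most measured partners of these proteins did not pass the test at 30 h, and neither did most of all probe sets. Among 4 measured partners of the band 3 and ankyrin complex, Car2, the carbonic anhydrase that supplies bicarbonate, was higher by 0.84 (12510 ± 654 at 30 h, 6881 ± 105 at 0 h, SD, n = 3 each, adjusted p = 1.52e-05). It was the only gene of the 4 called at 30 h, where 12.8% of all probe sets were higher, and the list's median log2 change was 0.35. Rhd, an Rh protein, was called at 14 h (1.11, adjusted p = 0.000559) and 21 h (1.13, adjusted p = 0.000228) but not at 30 h (0.50, adjusted p = 0.0673). At 30 h it was called with the dimmest 33.3% of probe sets left out (adjusted p = 0.0488), without the 7 h replicate C (0.0481) and without the 30 h replicate B (0.65, adjusted p = 0.0287). The means of Rhd were 213.4, 232.5, 210.5, 460.1, 478.4 and 290.9 at the 6 times, whereas Rhag had no called change before 30 h. Epb42, which encodes protein 4.2, had means between 11.3 and 37.0 and was not called, and neither was Cd47.

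Among 8 actin junction partners, 2 were higher and 1 was lower, against 12.8% and 13.8% of all probe sets, and the median was 0.16. Tmod3, a tropomodulin that caps the slow-growing filament end, was higher by 1.23 (2524 ± 284 at 30 h, 960 ± 104 at 0 h, adjusted p = 3.91e-06), and its _f_at probe set may read related transcripts. Capzb, a subunit of the capping protein of the fast-growing end, was higher by 0.57 (adjusted p = 0.0108), a call lost with median scaling (adjusted p = 0.0561) and without the 0 h replicate A (0.41, adjusted p = 0.0816). Slc2a1, the glucose transporter, was lower by a log2 change of -2.63 (adjusted p = 0.0176), from signals of 11.3, 9.10 and 46.8 at 30 h against 83.2, 190 and 507 at 0 h. That fall was lost without the 0 h replicate C (-1.99, adjusted p = 0.111), without the 30 h replicate A (adjusted p = 0.0622) or without the 30 h replicate B (adjusted p = 0.059). Stom, read by an _r_at probe set, was not called at 30 h (0.53, adjusted p = 0.153). It was called higher without quantile normalization (0.71, adjusted p = 0.0369) and with median scaling (0.72, adjusted p = 0.0201).

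Of 9 other red cell surface genes, 4 were lower at 30 h, where 13.8% of all probe sets were, the rest did not pass the test and the median was -0.60. Slc29a1, a nucleoside transporter, had 185.3 ± 46.3 at 30 h and 755.7 ± 154 at 0 h (log2 change -1.89, adjusted p = 5.86e-08). Itgb1, the integrin beta 1 chain of progenitor adhesion, had 1090 ± 222 at 30 h and 1667 ± 287 at 0 h (-0.75, adjusted p = 0.000871). Cd44, a hyaluronan receptor, was dim and had 16.97 at 30 h and 53.77 at 0 h (-1.20, adjusted p = 0.00557). Cd55, which restrains complement, was also lower (-0.77, adjusted p = 0.0226) and lay among the dimmest 33.3% of probe sets. Its call was lost without the 0 h replicate B (adjusted p = 0.0704) or the 30 h replicate C (adjusted p = 0.135). The _f_at probe set of Itgb1 and the _s_at probe set of Cd44 may read related transcripts. Itga4 was called lower only in alternatives: with a constant of 1 (-0.9, adjusted p = 0.0369), with the dimmest 33.3% left out (-0.6, adjusted p = 0.0342) and without the intensity trend (-0.6, adjusted p = 0.0174).

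Of 5 direct partners of the surface proteins, 1 was higher and 1 was lower, against 12.8% and 13.8% of all probe sets, and the median was 0.29. Adam10, the protease that Tspan33 escorts, was higher by 0.86 (189.4 ± 46.0 at 30 h, 103.9 ± 21.4 at 0 h, adjusted p = 0.00809), a call lost without the 30 h replicate B (adjusted p = 0.0546). Slc16a1, a monocarboxylate transporter that basigin escorts, was dim at 3.13 ± 1.27 at 30 h and 30.0 ± 3.59 at 0 h (-1.27, adjusted p = 0.0029). It lay among the dimmest 33.3% of probe sets and so was not tested when these were left out, as was the case for Cd55. Among 13 relatives used mostly outside red cells, 1 was higher and 1 was lower, against 12.8% and 13.8% of all probe sets, and the median was 0.06. Most of these 13 lay among the dimmest 33.3% of probe sets. Nptn, a relative of basigin, had 286.8 ± 34.6 at 30 h and 115.9 ± 5.99 at 0 h (1.29, adjusted p = 6.22e-05). Sptbn1, a spectrin of non-erythroid cells, had 32.1 ± 23.0 at 30 h and 194.5 ± 9.36 at 0 h (-2.22, adjusted p = 4.21e-06). The median over all 8251 genes was 0.05 in the same comparison.

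**Figure D4:**
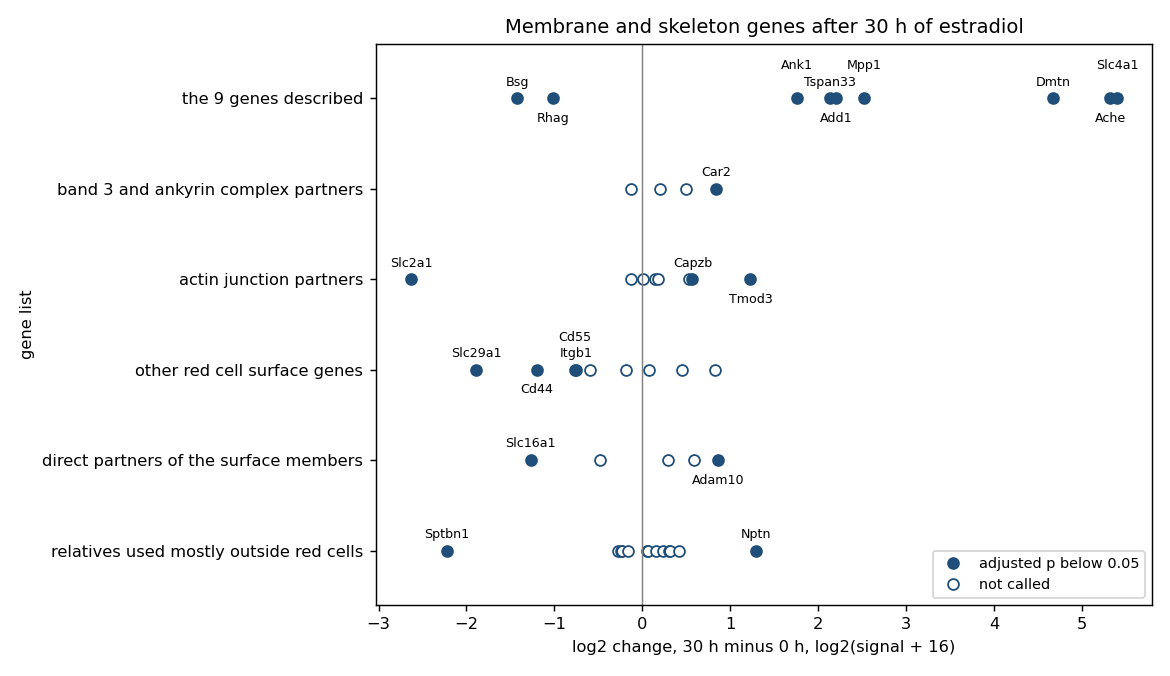
Log2 change at 30 h minus 0 h (x axis, log2 of signal + 16) of the 9 genes and of 5 lists of related genes (rows). Each point is 1 gene, filled where the adjusted p was below 0.05 and named. The 7 genes that rose lie between 1.76 and 5.40, above every called gene of the 5 lists.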

How the data were processed

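The authors deposited 1 signal intensity per probe set and array on a linear scale. The algorithm that summarized the probes is not given in the sources used here. Of 12488 probe sets, 66 controls were left out. A gene with several probe sets is represented by the one with the highest mean log2 signal. limma 3.58.1 (R 4.3.3) fitted 1 mean per time to all 18 arrays (12 residual degrees of freedom), with eBayes and an intensity trend, and was tested on simulated data. The number of arrays limits the precision. An exact permutation of 3 against 3 arrays cannot give a p below 0.1.

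The members and gene lists were chosen with earlier results of these data known. All members were named, with every list gene called at 30 h and the 3 genes of highest Pearson's r per member. Rhd, Epb42, Cd47, Stom and Itga4 were named after their values were seen. Alternatives were no quantile normalization, median scaling, constants of 1 and 64, leaving out the dimmest 33.3% of probe sets, no intensity trend, array quality weights, a replicate block, a fit of the compared times, and leaving out each of the 18 arrays. Alternatives for list genes and for ranks were added after the data were seen. Promoter windows were read with Python 3.11.15 and figures drawn with matplotlib 3.10.9.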

Additional observations from a re-analysis of the deposited data

How the results depend on the processing

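At 30 h, 21 h and 14 h against 0 h, the counts of called probe sets (11, 9 and 9) stayed within 9 to 11 under every alternative run, that at 7 h (7) stayed within 6 to 8, and leaving out 1 array moved the 30 h log2 change of Slc4a1 between 5.23 and 5.66 and that of Bsg between -1.50 and -1.30. Over all probe sets the alternatives called 2816 to 3430 at 30 h and 2174 to 2693 at 21 h. The ranges were 1259 to 1765 at 14 h and 320 to 605 at 7 h. At 3 h against 0 h the member count was 1 with array quality weights, against 0. There 202 of all probe sets were called, against 132 in the main fit. At 7 h against 3 h the member count was 2 with median scaling and 3 in the fit of the compared times alone, against 6. Of all probe sets, 21 and 15 were called higher in these alternatives, against 91. At 14 h against 7 h the member count was 3 to 6 with an array left out, against 5. The lowest came without the 7 h replicate C or the 14 h replicate A. Of all probe sets, 93 and 83 were called higher in these fits, against 156 in the main fit. At 21 h against 14 h the member count was 2 with a constant of 64, against 1. Of all probe sets, 129 were called higher there, against 117 in the main fit. At 30 h against 21 h the member count was 1 with median scaling, against 2. Of all probe sets, 389 were called there, 126 of them higher. In the main fit 232 were called higher and 387 lower.

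The replicate block gave 7 at 14 h against 7 h, against 5, and changed no other member count. Of all probe sets it called 183 higher in that comparison, against 156 in the main fit. The correlations of deviations between arrays of the same letter ran from -0.05 to 0.20 over 27 pairs, 2 of them above 0.1, so the letters were not taken to pair the arrays.

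Sign changes were limited to changes that were not called. Without quantile normalization they were -0.01 for Ache at 3 h, 0.04 and 0.01 for Rhag at 7 h and 21 h, and 0.06 for Ank1 100439_i_at at 30 h against 21 h. With median scaling they were 0.02 and 0.06 for Rhag at 7 h and 21 h, and 0.00 and 0.02 for Ank1 100440_f_at and 100439_i_at at 30 h against 21 h. With an array left out, changes against 0 h ran from -0.07 to 0.16 for Ank1 100440_f_at at 3 h, -0.25 to 0.46 for Ache at 3 h and -0.16 to 0.03 for Rhag at 7 h. Against the time before, they ran from -0.47 to 0.18 for Slc4a1 at 7 h, from -0.76 to 0.01, -0.45 to 0.32 and -0.04 to 0.55 for Bsg at 7, 14 and 21 h, and from -0.01 to 0.25 and -0.12 to 0.12 for Ank1 100440_f_at and 100439_i_at at 30 h. The cause of these shifts was not tested.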
